A study of Mus musculus with 8 samples.

Results

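G protein-coupled receptors whose mouse symbols begin with Gpr and a number, with Gprc5 or with Adgr (the adhesion receptors), together with Gper1, were followed in CD249+ and CD249- cells sorted from mouse lung. The members are the rows of the deposited count table whose symbol has 1 of these forms, which gave 106 of 25509 mouse genes. Membership rests on the symbol and on no count, but the family and the addition of Gper1 were proposed with results of this comparison known, so shares and counts over the members describe the family and are not read as evidence about it. Mice 2, 7, 8 and 10, all wild-type C57Bl6/J, each gave a CD249+ and a CD249- library of fibroblasts from the same lung, so that each fraction has 4 libraries. In both fractions the sorted cells lacked CD45, CD326 and CD31 on the surface, and equal cell numbers of each fraction were collected per lung. CD249 is glutamyl aminopeptidase, the product of Enpep. Age, sex and any treatment of the mice are not given in the sources used here.

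G protein-coupled receptors cross the membrane several times and pass an outside signal to heterotrimeric G proteins, which act on adenylyl cyclases, phospholipases and other effectors. Receptor kinases and arrestins then switch the receptor off, and RGS proteins shorten the life of the active G protein. Adhesion receptors carry a long extracellular part that is cut near the membrane and binds matrix or cell-surface partners, and exposure of the stretch behind the cut turns many of them on. Most Gpr symbols were given to receptors with no known ligand, and several Gpr genes code for proteins of the Golgi, lysosome or other inner membranes that are not classical receptors.

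Library totals ran from 23011383 to 31906414 estimated counts. Enpep stood at 240, 221, 175 and 329 CPM (counts scaled to a common library size with TMM factors) in the CD249+ fraction (mice 2, 7, 8 and 10), against 7.54, 5.99, 5.13 and 17.3 CPM in the CD249- fraction. Genes of fibroblasts in general (Pdgfra, Col1a1, Col1a2, Col3a1, Dcn and Lum) summed to 12824 to 23822 CPM in the CD249+ fraction and 4898 to 12163 CPM in the CD249- fraction. Markers of alveolar fibroblasts summed to 3585 to 6782 CPM in the CD249+ fraction and 304 to 435 CPM in the CD249- fraction. All 10 were higher. Pericyte markers were higher for 8 of 9 and smooth muscle markers for 5 of 6. Of 7 adventitial fibroblast markers 2 were higher and 2 lower. Platelet markers were lower for 6 of 6 and mesothelial markers for 4 of 5. Epithelial markers were higher for 3 of 9 tested. They summed to 497 to 10236 CPM in the CD249+ fraction, highest in mouse 10, and to 179 to 832 CPM in the CD249- fraction. The part of these lists in the receptor levels was not tested. Although the gate excluded CD31, 17 endothelial markers summed to 5973 to 11661 CPM in the CD249+ fraction and 19244 to 25718 CPM in the CD249- fraction, and all 17 were lower in the CD249+ fraction. Among the CD249+ libraries the sum was highest in mouse 2, at 11661 CPM, where the fibroblast sum was lowest, at 12824 CPM. Leukocyte markers summed to 1484 to 3727 CPM in the CD249+ fraction and 2048 to 3531 CPM in the CD249- fraction, with 3 of 17 tested lower. Much of these sums was Lyz2, at 912 to 3147.5 CPM in the CD249+ fraction and 1124 to 1835 CPM in the CD249- fraction. Its log2 fold change was 0.28, while the median over the tested leukocyte markers was -0.81, so the sums do not show that leukocyte RNA was alike. In such bulk samples fewer cells of a type and less RNA per cell cannot be told apart. Of 14524 genes tested, 30.8% were called at an adjusted p under 0.05, 16.9% higher and 13.9% lower in the CD249+ fraction. All adjusted p values are from edgeR's quasi-likelihood test with Benjamini-Hochberg adjustment over these genes. Unless a block for mouse is named, the fit compared the groups without the pairing by mouse. Some calls changed once the pairing was used.

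Of the 106 members 62 had enough counts to be tested, 15 were higher in the CD249+ fraction, 10 were lower and 37 did not pass, beside 16.9% higher and 13.9% lower among all genes tested. A member that passed the filter on low counts through 1 fraction alone was bound to differ. Of the 27 adhesion receptors, 17 were tested, with 4 higher and 6 lower. The 3 tested Gprc5 genes gave 1 higher, and the 41 tested Gpr genes gave 9 higher and 4 lower. The fractions did not overlap for 15 tested members with all CD249+ libraries above and for 11 with all CD249- libraries above, where 17.8% and 15.8% of all tested genes did so. Called and at least 2-fold apart were 11 members higher and 7 lower, against 10.4% and 5.23% of all tested genes. The median log2 fold change (CD249+ over CD249-) of the tested members was -0.21, against -0.02 over all genes tested. With scaling by library size alone the members gave 12 higher and 14 lower, all genes tested 2106 higher and 2689 lower, and the median over all genes moved to -0.12. With mouse as a block, 11 members were higher and 16 lower, and of all genes tested 2809 were higher and 2489 lower. The main fit gave 2455 and 2013 over all genes.

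**Figure D1:**
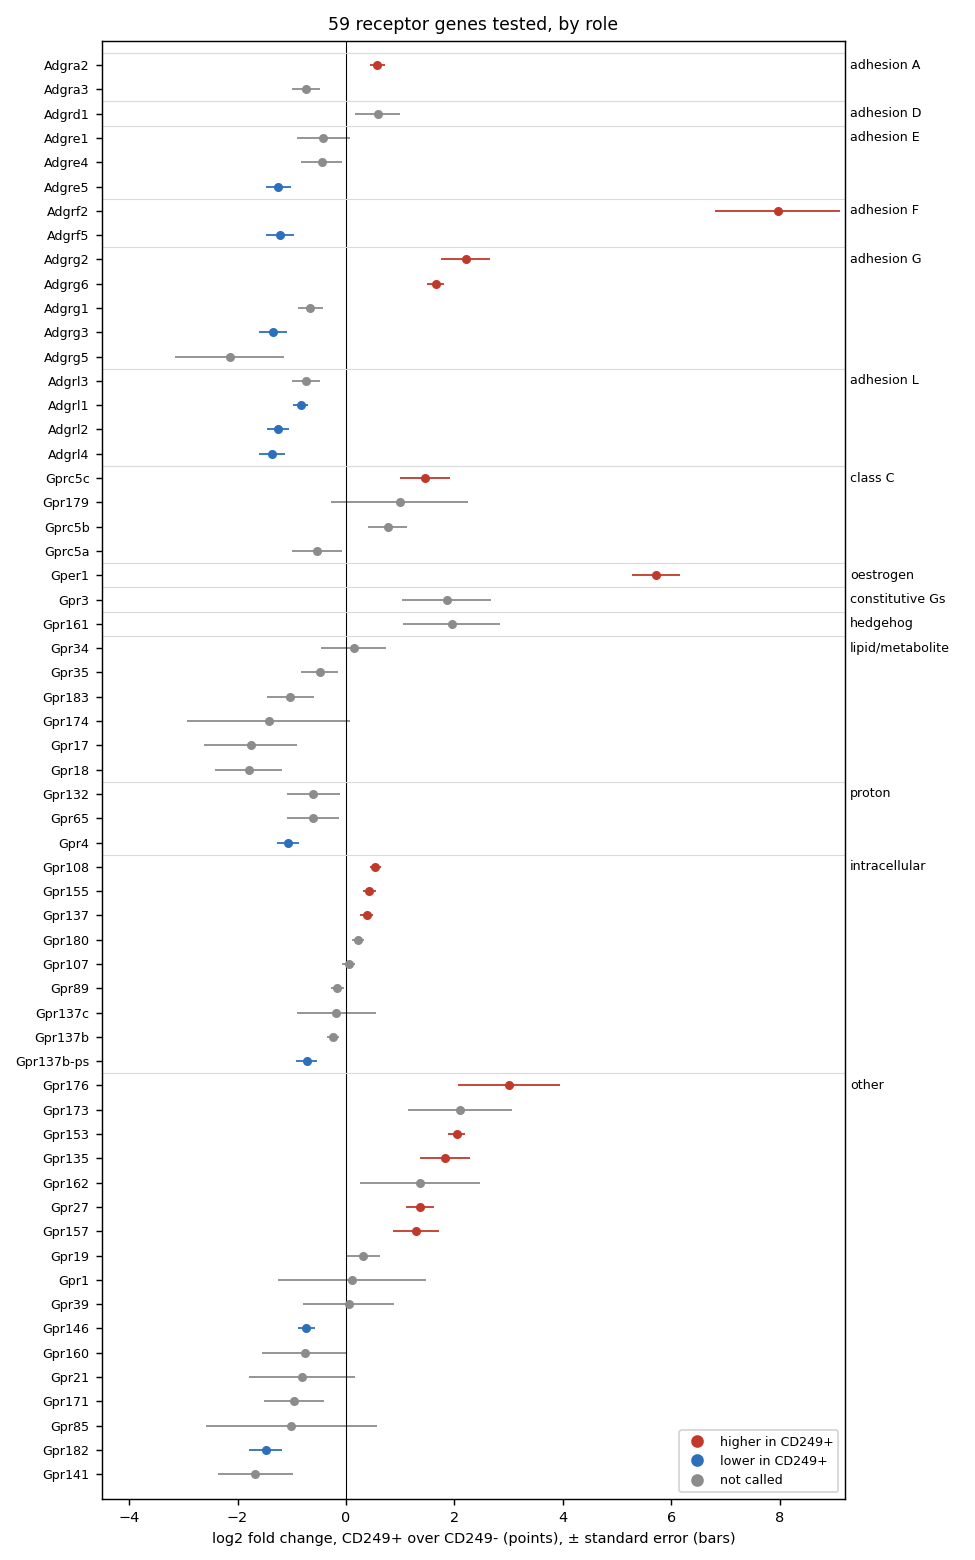
Log2 fold change of 59 tested receptor genes, CD249+ over CD249- (points), with standard errors (bars), grouped by role from top to bottom, with genes called higher in red, lower in blue and not called in grey. Gper1 at 5.71 and Adgrf2 at 7.96 stand far to the right, and the 4 tested latrophilin-type genes of adhesion group L lie left of 0.

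As a sum, the family took less of the RNA of the CD249+ fraction. The 106 genes summed to 4878, 3184, 3515 and 3239 CPM in the CD249+ fraction (mice 2, 7, 8 and 10), against 8497, 5823, 6676 and 6290 CPM in the CD249- fraction, without overlap. Adhesion receptors made up 69.2% to 80.3% of this sum in the CD249+ fraction and 84.4% to 87.0% in the CD249- fraction. Adgre5, Adgrf5 and Adgrl4 alone held 49.3% to 64.7% of it in the CD249+ fraction and 70.1% to 74.6% in the CD249- fraction. Without these 3 genes the sums were 1552 to 1724 CPM in the CD249+ fraction and 1743 to 2160 CPM in the CD249- fraction. The non-adhesion members summed to 959 to 979 CPM in the CD249+ fraction and 876 to 1102 CPM in the CD249- fraction, which overlap.

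Per kilobase of merged exon, the scale on which genes can be set beside each other, Adgre5 had the highest mean level of the members in both fractions, at 248 CPM per kb in the CD249+ fraction and 588 CPM per kb in the CD249- fraction. It was followed in both by Adgrf5, at 99.1 CPM per kb in the CD249+ fraction and 231 in the CD249- fraction, and by Adgrl4, at 55.0 in the CD249+ fraction and 142 in the CD249- fraction. The next place was held by Gpr153 in the CD249+ fraction, at 53.0 CPM per kb, and by Gpr182 in the CD249- fraction, at 53.6 CPM per kb. Gper1 ranked 12 in the CD249+ fraction at 10.6 CPM per kb and stood at 0.199 CPM per kb in the CD249- fraction.

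Gper1, the membrane receptor for oestrogen formerly called Gpr30 (ENSMUSG00000053647.4, chromosome 5, 139423151 to 139427800, plus strand, GRCm38), showed the largest difference of any member above 5 CPM. It stood at 17.7, 27.0, 27.7 and 35.6 CPM in the CD249+ fraction (mice 2, 7, 8 and 10) and at 0.996, 0.210, 0.334 and 0.480 CPM in the CD249- fraction. These values rest on 536, 762, 783 and 1038 counts in the CD249+ fraction and on 30, 6, 8 and 16 counts in the CD249- fraction. The means were 27.0 ± 7.33 CPM in the CD249+ fraction and 0.505 ± 0.346 CPM in the CD249- fraction (SD, n = 4), a ratio of 53.4. Its log2 fold change was 5.71 (SE 0.44), given without a test because the gene was included with this difference known. Every CD249+ library lay far above every CD249- library. The CD249- library with the most Gper1 was that of mouse 2, and the log2 fold change was 6.44 without both libraries of that mouse. Relative to 1000 CPM of the summed fibroblast markers, Gper1 stood at 1.13 to 1.57 in the CD249+ fraction and 0.0210 to 0.203 in the CD249- fraction, a difference in the same direction without overlap. Of the nuclear oestrogen receptors, Esr1 was higher at 5.98 ± 2.23 CPM in the CD249+ fraction and 2.21 ± 0.587 CPM in the CD249- fraction (SD, n = 4, adjusted p = 0.0177), and Esr2 was not called, at 1.88 ± 0.981 CPM in the CD249+ fraction and 3.47 ± 1.30 CPM in the CD249- fraction (SD, n = 4, adjusted p = 0.199).

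Gper1 has another family member as its neighbour, 26.7 kb upstream on the same strand, and that gene was lower in the CD249+ fraction. Gpr146 (ENSMUSG00000044197.8, chromosome 5, 139377697 to 139396415, plus strand, GRCm38), a receptor known for its part in cholesterol metabolism in liver, had 134, 96.3, 91.3 and 104 CPM in the CD249+ fraction (mice 2, 7, 8 and 10), against 225, 152, 159 and 172 CPM in the CD249- fraction. The fractions did not overlap, and the log2 fold change was -0.74 (SE 0.16, adjusted p = 0.00614, lower in 4 of 4 mice). Below are the promoters of this pair, which lie side by side and differ in opposite directions, from 250 bases before to 50 after the RefSeq start (GRCm38.p6, 5′ to 3′ on the gene's strand). Capitals mark matches, on either strand, to the letters of 5 motifs. The TATA box was searched as TATAAA and the GC box as GGGCGG. A common form of the ETS factor site was searched as CAGGAAG, the E-box as CAGCTG, and the response element for cyclic AMP as TGACGTCA. None of the 5 contains another.
Gper1, chr5:139422929-139423228: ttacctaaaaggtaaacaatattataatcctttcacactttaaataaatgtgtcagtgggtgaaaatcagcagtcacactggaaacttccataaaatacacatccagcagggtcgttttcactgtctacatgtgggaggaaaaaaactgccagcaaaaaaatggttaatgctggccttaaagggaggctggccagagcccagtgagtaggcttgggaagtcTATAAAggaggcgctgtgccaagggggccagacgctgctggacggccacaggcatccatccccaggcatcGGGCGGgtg
Gpr146, chr5:139377447-139377746: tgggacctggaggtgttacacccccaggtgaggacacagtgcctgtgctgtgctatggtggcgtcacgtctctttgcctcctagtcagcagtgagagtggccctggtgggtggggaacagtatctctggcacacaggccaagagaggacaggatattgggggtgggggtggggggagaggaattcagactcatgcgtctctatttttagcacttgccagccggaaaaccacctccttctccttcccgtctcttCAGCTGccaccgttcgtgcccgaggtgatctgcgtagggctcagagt
In this window Gper1 holds a TATA box and a GC box, and Gpr146 an E-box. Over all 32851 RefSeq promoters of the same length, 13.6% hold the TATA letters, 35.7% the GC box, 13.3% the ETS letters, 16.3% the E-box and 1.79% the cAMP element. RefSeq promoters were matched for 75 of the 106 members. Where a gene has several RefSeq starts, only the start nearest its annotated 5′ end was used. Gpr146 has 3 such starts, and Gpr153 and Adgrf5, shown further below, have 2 each. A match describes letters and is no evidence of binding.

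Among the adhesion receptors that rose, Adgrg6 had the smallest adjusted p. Adgrg6, or Gpr126 (ENSMUSG00000039116.4, chromosome 10, 14402583 to 14545659, minus strand, GRCm38), binds collagen IV and laminin and is required for myelination by Schwann cells. It stood at 95.1, 62.1, 60.5 and 65.3 CPM in the CD249+ fraction (mice 2, 7, 8 and 10), against 21.5, 26.1, 19.9 and 22.7 CPM in the CD249- fraction. The groups lay apart, with mouse 2 highest among the CD249+ libraries, and the log2 fold change was 1.65 (SE 0.16, adjusted p = 8.09e-05). Relative to 1000 CPM of the summed fibroblast markers Adgrg6 overlapped, at 2.605 to 7.417 in the CD249+ fraction and 1.869 to 4.38 in the CD249- fraction. Of 6 Schwann cell markers 2 had enough counts to be tested, neither was called, and the list summed to 1.58 to 6.65 CPM in the CD249+ fraction and 1.05 to 8.02 CPM in the CD249- fraction, with Sox10 at 0 in every CD249+ library. Adgrg2, or Gpr64, known from the epididymis (ENSMUSG00000031298.15, chromosome X, 160390690 to 160498070, GRCm38), had 15.1, 28.2, 21.8 and 28.6 CPM in the CD249+ fraction and 5.21, 5.32, 1.34 and 8.37 CPM in the CD249- fraction. In CPM it too separated the fractions in every library (log2 fold change 2.204, SE 0.45, adjusted p = 0.00461). Against the fibroblast markers Adgrg2 overlapped as well, at 0.9425 to 1.265 in the CD249+ fraction and 0.1893 to 1.064 in the CD249- fraction.

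Adgra2, or Gpr124 (ENSMUSG00000031486.14, chromosome 8, 27085583 to 27123436, GRCm38), which works with the membrane protein Reck as a co-receptor for Wnt7 in brain vessels, rose by less. Its levels were 54.5, 53.8, 51.6 and 70.3 CPM in the CD249+ fraction and 40.7, 43.6, 30.9 and 39.0 CPM in the CD249- fraction (log2 fold change 0.58, SE 0.14, adjusted p = 0.0113). The fractions did not overlap, and the call did not survive leaving out mouse 10 (0.47, adjusted p = 0.0586). Reck rose to 158 ± 16.7 CPM in the CD249+ fraction, against 40.3 ± 8.41 CPM in the CD249- fraction (SD, n = 4, adjusted p = 1.65e-05), while Wnt7a and Wnt7b had too few counts to be tested. In the same subgroup Adgra3 had 176, 89.0, 94.1 and 93.5 CPM in the CD249+ fraction against 261, 139, 163 and 194 CPM in the CD249- fraction. It was lower within every mouse but not called (log2 fold change -0.74, adjusted p = 0.0526), and it was called with mouse as a block (-0.76, adjusted p = 0.000332). Adgrd1, or Gpr133, was higher in 3 of 4 mice, at 41.0, 139, 138 and 75.6 CPM in the CD249+ fraction and 29.5, 72.3, 64.7 and 94.8 CPM in the CD249- fraction, and did not pass (log2 fold change 0.59, adjusted p = 0.320).

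Adgrf2 was found in CD249+ libraries alone. This orphan adhesion receptor gene (ENSMUSG00000057899.6, chromosome 17, 42708936 to 42742179, minus strand, GRCm38) had 24, 42, 17 and 41 counts in the CD249+ fraction (mice 2, 7, 8 and 10), which is 0.790, 1.49, 0.602 and 1.404 CPM, and 0 counts in all 4 CD249- libraries. Set against a floor of 3 counts per library, on average 0.105 CPM, its mean of 1.07 ± 0.441 CPM (SD, n = 4) was at least 10.2-fold higher in the CD249+ fraction. It passed the filter on low counts through the CD249+ fraction alone and so had to differ, and its fitted log2 fold change of 7.96 depends on the small count the fit adds and is no measure of size. With this gene at its bound the median over tested members is also -0.21. The next gene on that chromosome, Adgrf4, 16.7 kb away, and Adgrf1 further along had too few counts to be tested, and Adgrf1 had 0 counts in all 8 libraries. Adgrv1, the very large receptor of inner ear hair cells, also had too few, with 17, 25, 24 and 8 counts in the CD249+ fraction and 0, 0, 0 and 5 counts in the CD249- fraction.

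Among orphan receptors with means above 10 CPM in the CD249+ fraction, Gpr153 and Gpr27 were higher there. Gpr153 (ENSMUSG00000042804.13, chromosome 4, 152274232 to 152285337, GRCm38) stood at 170, 232, 219 and 208 CPM in the CD249+ fraction, against 43.3, 57.9, 41.0 and 59.1 CPM in the CD249- fraction. All 4 mice gave this direction (log2 fold change 2.04, SE 0.15, adjusted p = 1.49e-05). Gpr27 (ENSMUSG00000072875.2, chromosome 6, 99692679 to 99695066, GRCm38) had 11.99, 20.7, 22.96 and 15.9 CPM in the CD249+ fraction and 4.78, 7.99, 8.38 and 6.78 CPM in the CD249- fraction (log2 fold change 1.36, SE 0.26, adjusted p = 0.0031). Neither had overlapping fractions. Fibroblast markers were higher in the same CD249+ libraries, and their part in these differences was not tested. Per 1000 CPM of those markers Gpr153 stood at 9.18 to 13.3 in the CD249+ fraction and 4.86 to 8.84 in the CD249- fraction, still apart. Gpr27 overlapped on that scale, at 0.702 to 0.991 in the CD249+ fraction and 0.557 to 1.19 in the CD249- fraction. In all, 11 of the 15 members called higher overlapped when set against the fibroblast markers, and 4 were apart, among them Gper1, Gpr153 and Adgrf2, whose 0 counts in the CD249- fraction fix this outcome. Among the 11, the ratio of the CD249+ to the CD249- mean on that scale ran from 0.506 (Gpr155) to 2.387 (Gpr176). How many of all genes called higher overlapped on that scale was not computed, so these counts are a description. The fibroblast sums themselves do not overlap between the fractions, so the division lowers every CD249+ value relative to the CD249- values. It holds for this list of markers only, whose median log2 fold change was 1.31. Markers of alveolar fibroblasts (median 3.76) and of pericytes (median 2.24) differed more, and no member was set against them.

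The promoters of Gpr153 and Adgrg6, called higher with the smallest adjusted p among the members with a matched promoter beside Gper1, are shown with the same capitals.
Gpr153, chr4:152273862-152274161: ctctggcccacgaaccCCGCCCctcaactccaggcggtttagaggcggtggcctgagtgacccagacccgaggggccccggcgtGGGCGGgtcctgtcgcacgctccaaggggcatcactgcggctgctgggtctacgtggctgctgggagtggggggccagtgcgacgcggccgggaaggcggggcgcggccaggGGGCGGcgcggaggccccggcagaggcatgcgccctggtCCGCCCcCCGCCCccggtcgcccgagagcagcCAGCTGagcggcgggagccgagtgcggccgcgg
Adgrg6, chr10:14544987-14545286: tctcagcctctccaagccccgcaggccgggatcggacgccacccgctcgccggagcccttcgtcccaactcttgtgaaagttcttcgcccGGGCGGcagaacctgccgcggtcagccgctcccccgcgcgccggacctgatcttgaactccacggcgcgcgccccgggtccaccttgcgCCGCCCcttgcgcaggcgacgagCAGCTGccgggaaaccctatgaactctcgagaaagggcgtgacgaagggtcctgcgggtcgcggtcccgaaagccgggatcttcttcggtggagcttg
They hold 35 and 38 CG dinucleotides, against 6 for Gper1 and a median of 7.0 over all RefSeq promoters. The RefSeq start of Adgrg6 lies 623 bases from the annotated 5′ end of the gene. Of the 10 members called higher with a matched promoter 8 hold a GC box and 4 an E-box, and of the 7 called lower 3 hold a GC box and 1 an E-box. Of all RefSeq promoters 35.7% hold a GC box and 16.3% an E-box, and no test was made. The median number of CG dinucleotides was 20 in the members called higher and 8 in those called lower.

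**Figure D2:**
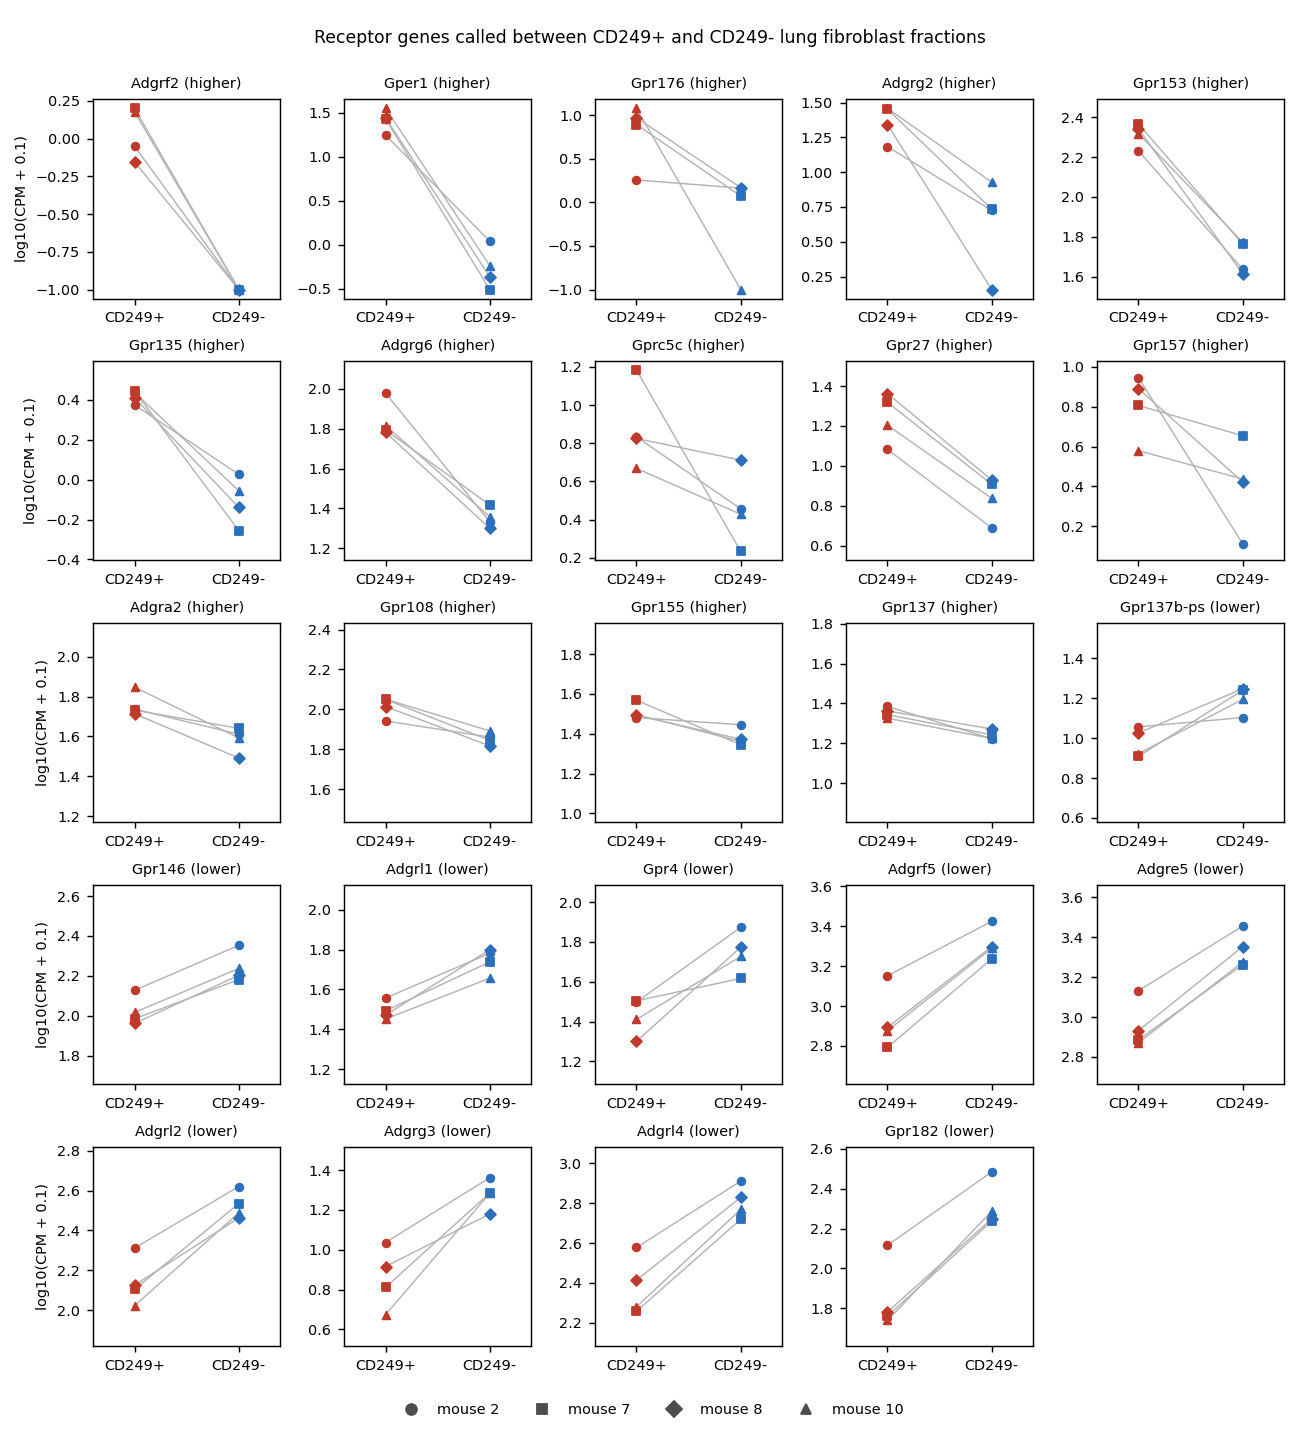
Level of each of 24 called receptor genes as log10(CPM + 0.1), CD249+ libraries (red) left and CD249- libraries (blue) right, with 1 symbol per mouse and a grey line joining the fractions of a mouse. Each panel has its own axis range. All lines run in 1 direction within a panel, and for Gpr157 and Gprc5c the fractions overlap.

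Smaller or less even rises made up the rest. Gpr176, an orphan receptor of the circadian clock, had 1.71, 7.75, 9.31 and 11.96 CPM in the CD249+ fraction and 1.36, 1.09, 1.38 and 0 CPM in the CD249- fraction (log2 fold change 3.01, SE 0.94, adjusted p = 0.0347). Mouse 2 showed little of this difference. The call was kept in 4 of 12 fits that left out a library or a mouse and was lost with mouse as a block (adjusted p = 0.0677). Gprc5c, a retinoic acid-induced class C receptor, had 6.72, 15.2, 6.58 and 4.56 CPM in the CD249+ fraction and 2.76, 1.61, 5.05 and 2.58 CPM in the CD249- fraction, which overlap (log2 fold change 1.46, SE 0.46, adjusted p = 0.0364). It gave 0.78 without both libraries of mouse 7 (adjusted p = 0.204), 0.99 without the CD249+ library of mouse 7 (adjusted p = 0.121), and the block for mouse also ended the call (adjusted p = 0.0551). Gpr157, a receptor of primary cilia in neural progenitors, had 8.73, 6.30, 7.68 and 3.70 CPM in the CD249+ fraction and 1.196, 4.41, 2.54 and 2.64 CPM in the CD249- fraction, again with overlap (log2 fold change 1.29, SE 0.43, adjusted p = 0.0461). With mouse as a block it was not called (adjusted p = 0.0572), and 3 of 12 fits with a library or mouse left out kept the call. Gpr135, an orphan receptor, was low at 2.27, 2.69, 2.48 and 2.64 CPM in the CD249+ fraction and 0.963, 0.455, 0.626 and 0.780 CPM in the CD249- fraction, apart in every library (log2 fold change 1.83, SE 0.46, adjusted p = 0.0127), and its adjusted p reached 0.065 without both libraries of mouse 10. Gpr161, a ciliary receptor that restrains hedgehog signalling, stood at 3.13, 11.9, 12.6 and 4.38 CPM in the CD249+ fraction and 2.42, 3.26, 0 and 2.55 CPM in the CD249- fraction and did not pass (adjusted p = 0.132).

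Genes for proteins of inner membranes differed little. Gpr108, a Golgi protein (ENSMUSG00000005823.8, chromosome 17, 57234635 to 57248446, GRCm38), had 87.4, 112, 103 and 112 CPM in the CD249+ fraction and 72.4, 69.8, 65.4 and 77.8 CPM in the CD249- fraction (log2 fold change 0.54, SE 0.11, adjusted p = 0.00384). Gpr155, the lysosomal cholesterol sensor, had 30.2, 36.9, 31.0 and 31.2 CPM in the CD249+ fraction and 27.8, 22.0, 23.5 and 22.9 CPM in the CD249- fraction (log2 fold change 0.43, adjusted p = 0.0238). The lysosomal gene Gpr137 had a log2 fold change of 0.38 (adjusted p = 0.035), and its exons overlap those of Bad on the other strand, whose reads cannot be told apart from it. The fractions of these 3 genes did not overlap. The call of Gpr155 was kept in 5 of 12 fits that left out a library or a mouse and that of Gpr137 in 1 of 12, and Gpr137 was not called with mouse as a block (adjusted p = 0.0527). Of the rest, Gpr107 at 62.2 to 73.2 CPM in the CD249+ fraction and 51.8 to 70.8 CPM in the CD249- fraction (adjusted p = 0.787), Gpr180 at 46.4 to 50.3 CPM in the CD249+ fraction and 39.3 to 49.4 CPM in the CD249- fraction (adjusted p = 0.139) and Gpr89 at 27.1 to 31.99 CPM in the CD249+ fraction and 27.9 to 36.9 CPM in the CD249- fraction (adjusted p = 0.337) were not called. Gpr137b had 58.8, 51.5, 53.3 and 50.1 CPM in the CD249+ fraction and 68.3, 52.5, 62.4 and 70.0 CPM in the CD249- fraction and was not called (adjusted p = 0.131). Its pseudogene copy Gpr137b-ps was called lower, at 11.3, 8.00, 10.5 and 8.26 CPM in the CD249+ fraction and 12.6, 17.3, 17.6 and 15.6 CPM in the CD249- fraction (log2 fold change -0.73, adjusted p = 0.0156). Reads of these copies may have been divided between them, so both values are uncertain, and the pseudogene's call did not survive leaving out mouse 7, 8 or 10 (-0.61, -0.72 and -0.67, adjusted p = 0.0974, 0.0654 and 0.0854).

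Several members lower in the CD249+ fraction are known from endothelium. Adgrf5, or Gpr116, which regulates surfactant in alveolar epithelium and is also made by endothelium (ENSMUSG00000056492.5, chromosome 17, 43360451 to 43459557, plus strand, GRCm38), had 1419, 621, 782 and 752 CPM in the CD249+ fraction (mice 2, 7, 8 and 10), against 2660, 1726, 1988 and 1947 CPM in the CD249- fraction. The fractions lay apart (log2 fold change -1.22, SE 0.26, adjusted p = 0.0056). Adgrl4, or Eltd1, an endothelial receptor of sprouting vessels (ENSMUSG00000039167.11, chromosome 3, 151437887 to 151545086, plus strand, GRCm38), had 378, 181, 259 and 191 CPM in the CD249+ fraction and 814, 524, 675 and 587 CPM in the CD249- fraction (log2 fold change -1.37, SE 0.24, adjusted p = 0.0021). Gpr182, a chemokine-binding receptor of vascular and lymphatic endothelium (ENSMUSG00000058396.7, chromosome 10, 127747276 to 127751732, GRCm38), had 130, 57.6, 60.4 and 54.7 CPM in the CD249+ fraction and 305, 173, 177 and 194 CPM in the CD249- fraction (log2 fold change -1.48, SE 0.31, adjusted p = 0.0047). For all 3 the CD249+ library of mouse 2 was the highest of its fraction. Gpr4, a proton-sensing receptor of endothelium, had 31.4, 31.9, 19.9 and 25.7 CPM in the CD249+ fraction and 74.6, 41.3, 59.3 and 53.2 CPM in the CD249- fraction (log2 fold change -1.07, SE 0.20, adjusted p = 0.00311). Among other proton sensors, Gpr65 and Gpr132 were below 17 CPM in every library and not called.

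The promoters of Adgrf5 and Adgrl4, the pair of most abundant members among these with a matched promoter, are given with the same capitals.
Adgrf5, chr17:43360181-43360480: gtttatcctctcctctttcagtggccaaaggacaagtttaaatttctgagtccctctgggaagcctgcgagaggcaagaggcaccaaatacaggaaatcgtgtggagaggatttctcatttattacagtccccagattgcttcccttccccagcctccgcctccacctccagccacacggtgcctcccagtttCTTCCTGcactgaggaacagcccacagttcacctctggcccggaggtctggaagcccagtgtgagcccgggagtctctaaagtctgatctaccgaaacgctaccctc
Adgrl4, chr3:151437632-151437931: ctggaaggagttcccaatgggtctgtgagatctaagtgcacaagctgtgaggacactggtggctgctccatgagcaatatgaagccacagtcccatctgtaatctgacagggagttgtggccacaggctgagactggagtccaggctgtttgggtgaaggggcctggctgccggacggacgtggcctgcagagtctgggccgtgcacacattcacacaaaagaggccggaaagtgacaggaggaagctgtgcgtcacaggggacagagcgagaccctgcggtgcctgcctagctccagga
Each holds 8 CG dinucleotides. The ETS letters occur in Adgrf5 and not in this window of Adgrl4, which has none of the 5 motifs. Of the 7 members called lower with a matched promoter 3 hold them, and of the 10 called higher 0 do.

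Adgre5, or CD97, a receptor of leukocytes and many other cells that binds CD55 (ENSMUSG00000002885.14, chromosome 8, 83723251 to 83741326, minus strand, GRCm38), had 1357, 769, 855 and 743 CPM in the CD249+ fraction and 2863, 1831, 2257 and 1888 CPM in the CD249- fraction (log2 fold change -1.25, SE 0.23, adjusted p = 0.00254). Its exons overlap those of Ddx39 on the other strand, as do those of Adgra2 with Brf2, Adgrl1 with Gm10644 and Gpr182 with Zbtb39, and without strand such reads cannot be told apart. The same limit holds where antisense genes overlap Adgrg2 (Gm15241), Adgrg6 (Gm46212), Adgrl2 (Gm43573) and Gpr155 (Gm13703 and Gm13709). The Adgre5 ligand gene Cd55 was not called, at 51.5 ± 22.9 CPM in the CD249+ fraction and 56.0 ± 20.97 CPM in the CD249- fraction (SD, n = 4, adjusted p = 0.849). The latrophilins, which bind teneurins and FLRT proteins across cell contacts, were lower as well. Adgrl2 had 205, 127, 133 and 105 CPM in the CD249+ fraction and 417, 343, 291 and 307 CPM in the CD249- fraction (log2 fold change -1.25, SE 0.20, adjusted p = 0.00133), and Adgrl1 had 35.9, 31.0, 29.5 and 28.2 CPM in the CD249+ fraction and 60.3, 54.6, 62.9 and 45.2 CPM in the CD249- fraction (log2 fold change -0.84, SE 0.13, adjusted p = 0.001). Adgrl3 was lower within every mouse at 64.1, 37.5, 54.7 and 32.9 CPM in the CD249+ fraction and 109, 59.6, 89.5 and 58.3 CPM in the CD249- fraction, but it overlapped and was not called (log2 fold change -0.74, adjusted p = 0.0552) except with mouse as a block (-0.74, adjusted p = 0.000184). The ligand gene Flrt2 was higher at 48.8 ± 18.4 CPM in the CD249+ fraction, against 23.4 ± 4.86 CPM in the CD249- fraction (SD, n = 4, adjusted p = 0.0122). The ligand genes Flrt3 and Tenm3 were not called (adjusted p = 0.833 and 0.816).

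A run of adhesion receptors on chromosome 8, Adgrg5, Adgrg1 and Adgrg3, spaced 31.5 kb and 3.47 kb apart, had lower values in the CD249+ fraction. Adgrg3, or Gpr97, known from granulocytes, was called at 10.8, 6.37, 8.14 and 4.62 CPM in the CD249+ fraction and 22.9, 19.2, 15.02 and 19.1 CPM in the CD249- fraction (log2 fold change -1.35, SE 0.26, adjusted p = 0.00357). Adgrg1, or Gpr56, a receptor for collagen III, had 39.7, 35.6, 28.1 and 65.6 CPM in the CD249+ fraction and 67.9, 72.8, 60.5 and 65.5 CPM in the CD249- fraction and was not called (log2 fold change -0.66, adjusted p = 0.0504). The CD249+ library of mouse 10 stood with the CD249- libraries, and the log2 fold change was -0.95 without it (adjusted p = 0.00146), and a block for mouse gave -0.73 (adjusted p = 0.0132). Epithelial markers were highest in that CD249+ library, and their part in the Adgrg1 level was not tested. Adgrg5 was at or below 1.06 CPM in the CD249+ fraction and at 1.72 to 3.96 CPM in the CD249- fraction, without overlap, and not called (log2 fold change -2.15, adjusted p = 0.136).

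Endothelial markers were lower in the same CD249+ libraries as these receptors, with a median log2 fold change of -1.45 over 17 of 17 markers. Set per 1000 CPM of the summed markers of the same library, Gpr182 stood at 11.2, 9.64, 8.70 and 9.09 in the CD249+ fraction and 11.8, 8.98, 9.03 and 9.78 in the CD249- fraction, which overlap. On that scale Adgrl4 stood at 30.3 to 37.4 in the CD249+ fraction and 27.2 to 34.4 in the CD249- fraction, Adgrl2 at 17.5 to 21.3 in the CD249+ fraction and 14.8 to 17.8 in the CD249- fraction, and Adgrg3 at 0.768 to 1.17 in the CD249+ fraction and 0.765 to 0.996 in the CD249- fraction. Adgrl1 and Gpr4 overlapped too. Adgre5, at 116 to 129 in the CD249+ fraction and 95.1 to 115 in the CD249- fraction, and Adgrf5, at 104 to 125 in the CD249+ fraction and 89.7 to 103 in the CD249- fraction, lay slightly above in the CD249+ fraction. Gpr146, at 11.5 to 17.2 in the CD249+ fraction and 7.87 to 8.76 in the CD249- fraction, and Gpr137b-ps did so by more. On that scale 6 of the 10 members called lower overlapped and 4 had all CD249+ libraries above. How many of all genes called lower did so was not computed, so these counts are a description. The marker sums themselves do not overlap between the fractions, so the division raises every CD249+ value relative to the CD249- values, and the part of the markers in the levels of these receptors was not tested.

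**Figure D3:**
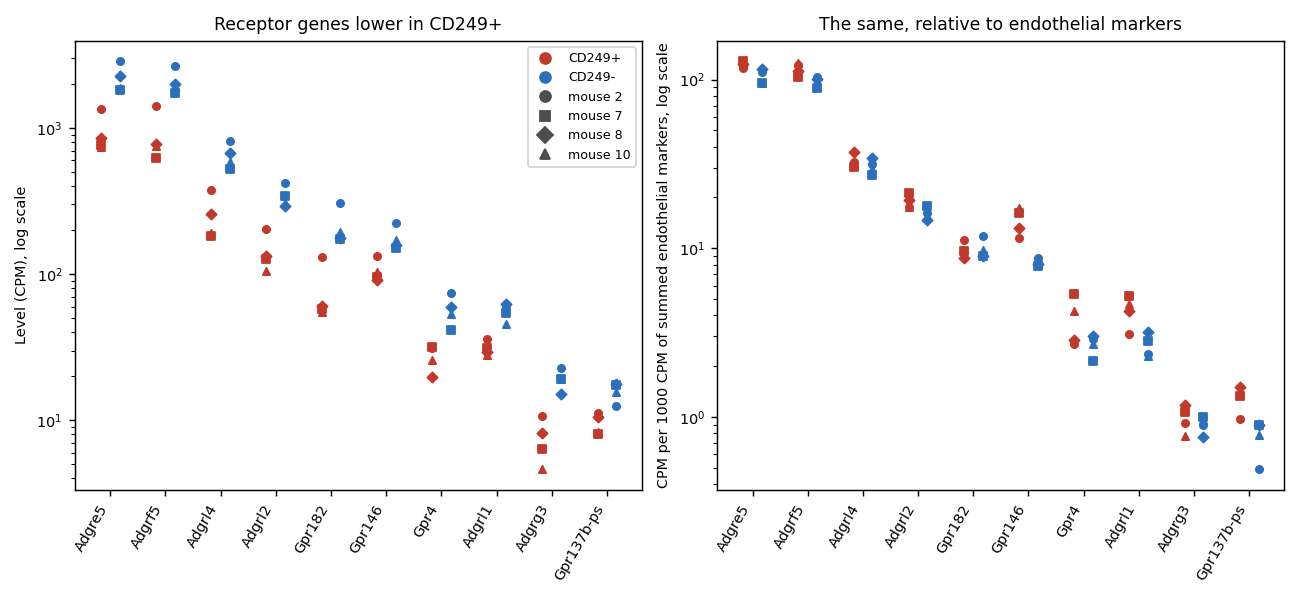
The 10 receptor genes called lower in the CD249+ fraction, with CD249+ libraries (red) left of CD249- libraries (blue) and 1 symbol per mouse, on log axes. The left panel gives the level in CPM and the right panel CPM per 1000 CPM of 17 summed endothelial markers. The gap seen at left, such as 54.7 to 130 CPM in the CD249+ fraction and 173 to 305 CPM in the CD249- fraction for Gpr182, closes or turns round at right.

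Further receptors best known from leukocytes, beside Adgre5 and Adgrg3, did not pass the test without a block for mouse. The macrophage receptor gene Adgre1, which encodes F4/80, had 16.2, 12.001, 21.6 and 3.25 CPM in the CD249+ fraction and 15.6, 18.9, 27.0 and 9.87 CPM in the CD249- fraction (adjusted p = 0.555). Gpr183, the receptor of immune cells for oxysterols, had 2.34, 4.18, 5.10 and 3.32 CPM in the CD249+ fraction and 2.82, 11.2, 9.51 and 6.93 CPM in the CD249- fraction (log2 fold change -1.03, adjusted p = 0.0981), and its neighbour Gpr18 had 0.560, 1.52, 3.50 and 1.47 CPM in the CD249+ fraction and 2.09, 5.74, 11.2 and 5.55 CPM in the CD249- fraction (log2 fold change -1.80, adjusted p = 0.0528). Both were lower within every mouse. With mouse as a block both were called (adjusted p = 0.0431 for Gpr183 and 0.00343 for Gpr18), as was Gpr141 (-1.69, adjusted p = 0.0284). Adgre4, Gpr34, Gpr35, Gpr171 and Gpr174 were below 23 CPM in every library and not called. Of the enzymes that make or break down the Gpr183 ligand, Cyp7b1, which adds the hydroxyl group to the oxysterol, rose to 21.8 ± 6.47 CPM in the CD249+ fraction, against 2.29 ± 1.00 CPM in the CD249- fraction (SD, n = 4, adjusted p = 0.000166), and Hsd3b7, which inactivates it, fell to 78.0 ± 12.7 CPM in the CD249+ fraction, against 108 ± 11.3 CPM in the CD249- fraction (SD, n = 4, adjusted p = 0.0212). Ch25h was not called (adjusted p = 0.393).

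The other tested members not called included Gprc5a, Gprc5b, Gpr1, Gpr3, Gpr17, Gpr19, Gpr21, Gpr39, Gpr85, Gpr137c, Gpr160, Gpr162, Gpr173 and Gpr179. Gprc5a, a retinoic acid-induced gene of lung epithelium, was the most abundant of them at 28.8, 8.43, 24.0 and 58.2 CPM in the CD249+ fraction and 48.9, 33.6, 31.0 and 59.0 CPM in the CD249- fraction (adjusted p = 0.426). Its highest CD249+ value fell in mouse 10, whose CD249+ library also had the most epithelial markers, and their part was not tested. Gprc5b had 4.86 to 8.74 CPM in the CD249+ fraction and 1.92 to 4.83 CPM in the CD249- fraction, and Gpr3, a receptor that is active without ligand, had 0.582 to 1.70 CPM in the CD249+ fraction and 0.0300 to 0.531 CPM in the CD249- fraction. Neither overlapped between fractions, and neither was called (adjusted p = 0.132 and 0.118). The 44 members with too few counts to be tested never exceeded 50 counts in a library. Of these 15 had 0 counts in all 8 libraries, namely Adgrb1, Adgrb3, Adgrf1, Adgrg4, Adgrg7, Gpr6, Gpr12, Gpr37, Gpr101, Gpr119, Gpr139, Gpr142, Gpr149, Gpr158 and Gprc5d. A count of 0 allows up to 3 counts, or 0.0900 to 0.125 CPM per library. The remaining 29 included Adgra1, Adgrb2, Adgrf3, Adgrf4, Adgrv1, Gpr15, Gpr20, Gpr22, Gpr25, Gpr26, Gpr31b, Gpr33, Gpr37l1, Gpr45, Gpr50, Gpr55, Gpr61, Gpr62, Gpr63, Gpr75, Gpr82, Gpr83, Gpr84, Gpr143, Gpr151, Gpr152 and Gpr165.

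Genes around the receptors changed in both directions. Of 93 genes in 9 lists (ligands, G proteins, cyclases, regulators and others), 75 were tested, 24 were higher, 20 lower and 31 did not pass, where 16.9% of all tested genes were higher and 13.9% lower. The lists were chosen with results known, and their counts are a description. Among adenylyl cyclases, which make cAMP, 5 of 8 rose and 1 fell (median log2 fold change 1.15). Adcy2 rose to 98.4 ± 5.87 CPM in the CD249+ fraction, against 8.06 ± 2.88 CPM in the CD249- fraction, and Adcy3 to 98.4 ± 3.41 CPM, against 39.7 ± 5.90 CPM in the CD249- fraction (SD, n = 4, adjusted p = 5.47e-06 and 3.58e-05). Adcy4 fell to 206 ± 73.2 CPM in the CD249+ fraction, against 544 ± 105 CPM in the CD249- fraction (SD, n = 4, adjusted p = 0.0017). Of 13 G alpha genes 2 rose and 6 fell (median -0.37). Gnai1, an inhibitor of cyclases, rose by 1.82 on the log2 scale, Gnai2 had a log2 fold change of -0.68, and Gna14 of the Gq class one of -1.24 (adjusted p = 0.000271, 0.00269 and 0.000145). Of 12 tested G beta and gamma genes 5 rose and 3 fell (median 0.16), with log2 fold changes of 2.84 for Gng7, 1.92 for Gng8 and -0.48 for Gnb1.

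Receptor kinases and arrestins gave 1 higher and 3 lower of 7 tested (median -0.37), again beside 16.9% higher and 13.9% lower and a median of -0.02 over all tested genes. Grk5 had a log2 fold change of 0.98 (adjusted p = 0.000754), Adrbk1, the gene of receptor kinase GRK2, of -0.76 (adjusted p = 0.00165) and the arrestin gene Arrb2 of -0.62 (adjusted p = 0.0195). Of 16 tested RGS genes 3 rose and 5 fell (median -0.40), among them Rgs2 at 1.96, Rgs3 at -1.22 and Rgs12 at -1.21 (adjusted p = 8.53e-05, 0.000117 and 0.00634). Ligand genes of adhesion receptors gave 6 higher of 11 tested (median 0.54), beside 16.9% of all tested genes, and the other 5 did not pass. Among these 5 was Col4a1, a chain of the collagen IV bound by Adgrg6 (-0.09, adjusted p = 0.583). The 6 include Lama2, a laminin chain bound by Adgrg6 (1.67, adjusted p = 0.00121), and Col3a1, the collagen bound by Adgrg1 (1.53, adjusted p = 0.00354). The surfactant protein gene Sftpd, a ligand of Adgrf5, was higher too (3.51, adjusted p = 0.0383), and epithelial markers summed to 10236 CPM in the CD249+ library of mouse 10, against 497 to 1122 CPM in the other CD249+ libraries and 179 to 832 CPM in CD249- libraries. Of the adhesion receptors named Celsr, planar polarity genes outside the symbol rule, Celsr2 fell to 10.1 ± 3.36 CPM in the CD249+ fraction, against 22.6 ± 4.86 CPM in the CD249- fraction (SD, n = 4, adjusted p = 0.00741).

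**Figure D4:**
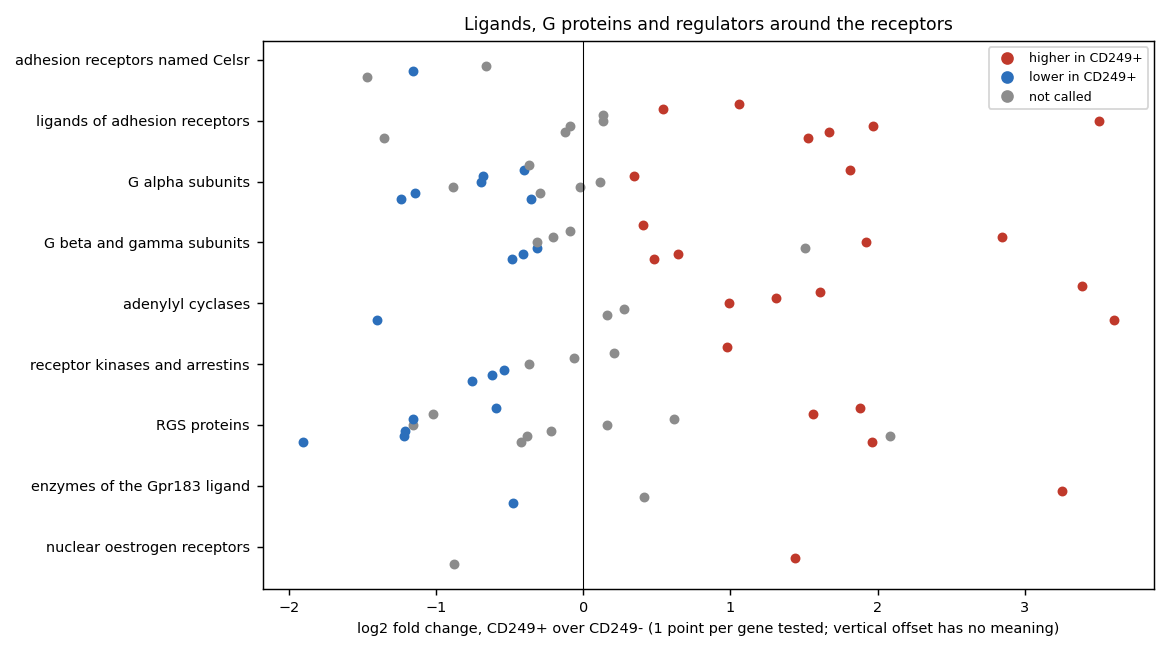
Log2 fold change, CD249+ over CD249-, of 75 tested genes around the receptors, 1 point per gene, in 9 lists. Adenylyl cyclases reach 3.61 (Adcy2) at right and -1.40 (Adcy4) at left, and G alpha and RGS genes lie on both sides of 0.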

How the data were processed

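RNA of sorted cells was made into cDNA with oligo(dT) priming (SMART-Seq V4) and Nextera XT libraries, per the labels' protocols, a method that keeps no strand and here has no molecular identifiers. The authors deposited estimated counts per gene (12% of values not whole). Per the submitters' processing notes the tools included RSEM 1.2.28 and STAR 2.6.1, with R 3.6.3, DESeq2 1.26.0 and bcl2fastq 2.20, and the build was GRCh38, a human assembly, while the identifiers are mouse. The build of the counts is therefore not settled, and coordinates are those of GENCODE M21 (GRCm38), matched by identifier. ERCC rows were 0 throughout and were left out.

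Counts were rounded, filtered with filterByExpr, scaled by TMM and tested with edgeR 4.0.16 in R 4.3.3 (quasi-likelihood F test, group only, two-sided, Benjamini-Hochberg over 14524 genes, called under 0.05). Alternatives were other scalings, no filter, DESeq2 1.42.0, limma-voom (limma 3.58.1), mouse as a block, and leaving out libraries or mice. The code was tested on simulated data.

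Mouse numbers pair the samples, since both fractions came from the same lung. Deviations from group means correlated at 0.132 to 0.285 within a mouse and -0.212 to 0.0515 between mice.

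The members and lists were chosen with earlier results of these data known. Named with all values were Gper1, called members with a mean of at least 5 CPM (up to 12 each way), uncalled members of at least 20 CPM, and up to 3 called genes per list. Others, such as Adgrf2, Gpr135, Gpr161, Gpr18, Gpr183 and Flrt2, were named after their values were seen. Counts of 0 are given with a limit of 3 counts, which covers counting error only. Values of some members are not reported here and not drawn in the figures, though they count in the totals.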

Additional observations from a re-analysis of the deposited data

Results flagged for a closer look

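For 9 groups of 4 libraries among the named members, 1 library stood apart, its gap to the nearest of the others exceeding 0.829 of the group's range. There were 62 such groups, and chance sets apart about 1 in 20. In CD249+ cells these were Adgra2 in mouse 10 at 70.3 CPM, Adgra3 in mouse 2 at 176 CPM, Adgrg6 in mouse 2 at 95.1 CPM, Gpr107 in mouse 10 at 73.2 CPM, Gpr155 in mouse 7 at 36.9 CPM, Gpr180 in mouse 2 at 46.4 CPM and Gpr182 in mouse 2 at 130 CPM. In CD249- cells they were Gpr180 in mouse 10 at 49.4 CPM and Gpr182 in mouse 2 at 305 CPM. Endothelial markers were also highest in mouse 2 within each fraction, with sums of 11661 CPM for CD249+ and 25718 CPM for CD249-, and their part in these values was not tested.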

How the results depend on the processing

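The main fit did not use the pairing by mouse. With mouse as a block, which does use it, the members called lower numbered 16, against 10 in the main fit, and those called higher 11, against 15. Over all genes tested, calls rose both ways under the block, to 2489 lower, against 2013, and 2809 higher, against 2455. The 10 lower members remained under that block, and the added ones were Adgra3, Adgrg1, Adgrl3, Gpr18, Gpr183 and Gpr141. Apart from these and the losses of Gpr137, Gpr176, Gpr157 and Gprc5c, the block changed no other call of a member. Under the other scalings, no filter, DESeq2 and limma-voom, the counts were 12 to 15 higher and 10 to 15 lower. Over all genes these settings gave 2106 to 2858 higher and 1868 to 2689 lower. Scaling by library size alone gave 43.9% of all called genes higher, against 54.9%. Leaving out a library or a mouse gave 10 to 14 members higher, 9 to 15 lower and 26 to 45 genes called in the lists around the receptors, against 44, with 26 without mouse 8 and 29 without mouse 10. Over all genes, leaving out a library or a mouse gave 1777 to 2479 higher and 1201 to 1979 lower. Of the members called higher, 8 of 15 passed in each of these 12 fits, as did 9 of 10 called lower. The same share over all called genes was not computed. The 8 include Gper1, which was added with its difference known, and Adgrf2, which had to differ. Passing these fits is no support for either gene. Gpr107, which was not called, had a log2 fold change of 0.05, -0.0461 with library size only, and -0.0374 to 0.1383 over these 12 fits, below 0 without the CD249+ library of mouse 10 (-0.0073), the CD249- library of mouse 8 (-0.0374) or both libraries of mouse 8 (-0.0141). The cause was not tested. Smaller counts limit members near 1 CPM such as Adgrf2, Gpr135 and Gpr3.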

Other observations

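Among the members with too few counts to be tested, Gpr83, a peptide receptor, had 0 counts in all 4 CD249+ libraries and 0, 15, 17 and 17 counts in the CD249- libraries of mice 2, 7, 8 and 10.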
